A study of Caenorhabditis elegans with 2 samples.

Results

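The pyruvate and 2-oxoglutarate dehydrogenase complexes of Caenorhabditis elegans are described here by 7 genes, dld-1, pdha-1, pdhb-1, dlat-1, dlat-2, dlst-1 and ogdh-1, of 19973 protein-coding genes on the nuclear chromosomes. The data are regions bound by GMEB-1, a SAND-domain DNA-binding protein related to the glucocorticoid modulatory element binding (GMEB) proteins of mammals. Chromatin was immunoprecipitated and sequenced (ChIP-seq) from whole larvae at the L2 stage, of strain OP343 and of mixed sex, whose age is labelled unknown. The strain carries the unc-119 allele ed3 and the transgene wgIs343, which expresses eGFP-tagged GMEB-1. The sources used here give neither the transgene's copy number nor its level beside the worm's own GMEB-1. All animals belonged to 1 group with 2 biological replicates, so no genotype, stage or treatment was compared.

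The genes were chosen by the rank and position of their summits in these same lists. Their counts, signals, ranks and distances are therefore a description and were not tested. A summit was counted for a gene when it lay in the gene or within 2 kb of it, and promoters were taken as the 1000 bp before and the 200 bp after the start of a coding transcript. The main list held the 3909 regions kept by the authors' irreproducible discovery rate (IDR) analysis of both replicates. All of them were the top-ranked regions of a list of 30000 called on both replicates pooled, which also holds background regions by design. Each replicate had such a relaxed list of its own, with 28693 regions in replicate 1 and 30000 in replicate 2. The IDR list followed replicate 2 more closely: 93.8% of its regions overlapped the 3909 strongest of replicate 2 and 55.0% the 3909 strongest of replicate 1. Depth is unknown, since no read counts were available, and signals are in the units of the authors' caller, whose scale differs between lists.

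Both complexes work in the mitochondrial matrix. The pyruvate dehydrogenase complex turns pyruvate from glycolysis into acetyl-CoA, and the 2-oxoglutarate dehydrogenase complex catalyses a later step of the tricarboxylic acid (TCA) cycle. Each has an E1 component that decarboxylates the acid, an E2 component that passes the acyl group to coenzyme A on a lipoyl arm, and an E3 component that reoxidises the arm. The E1 of the pyruvate complex is encoded by pdha-1 and pdhb-1 and its E2 by dlat-1, while ogdh-1 and dlst-1 encode the E1 and E2 of the 2-oxoglutarate complex. The gene dlat-2 encodes a protein that RefSeq annotates by a 2-oxoacid dehydrogenase acyltransferase domain. DLD-1 is the E3 of both, and it also serves the branched-chain 2-oxoacid dehydrogenase and the glycine cleavage system.

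GMEB-1 regions at these genes differed widely in strength. The region upstream of dld-1 ranked 7 of 3909, and the other 4 IDR summits ranked between 2275 and 3568. Of the 7 genes, 4 had an IDR summit in the gene or within 2 kb (dld-1, dlst-1, pdhb-1 and dlat-1), where 28.2% of all protein-coding genes did. The same 4 genes had an IDR summit in the promoter, against 16.3% of protein-coding genes. No IDR summit lay within 2 kb of pdha-1, dlat-2 or ogdh-1. Each complex thus had an E2 gene in the list, and the pyruvate complex also had 1 of its 2 E1 genes.

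**Figure D1:**
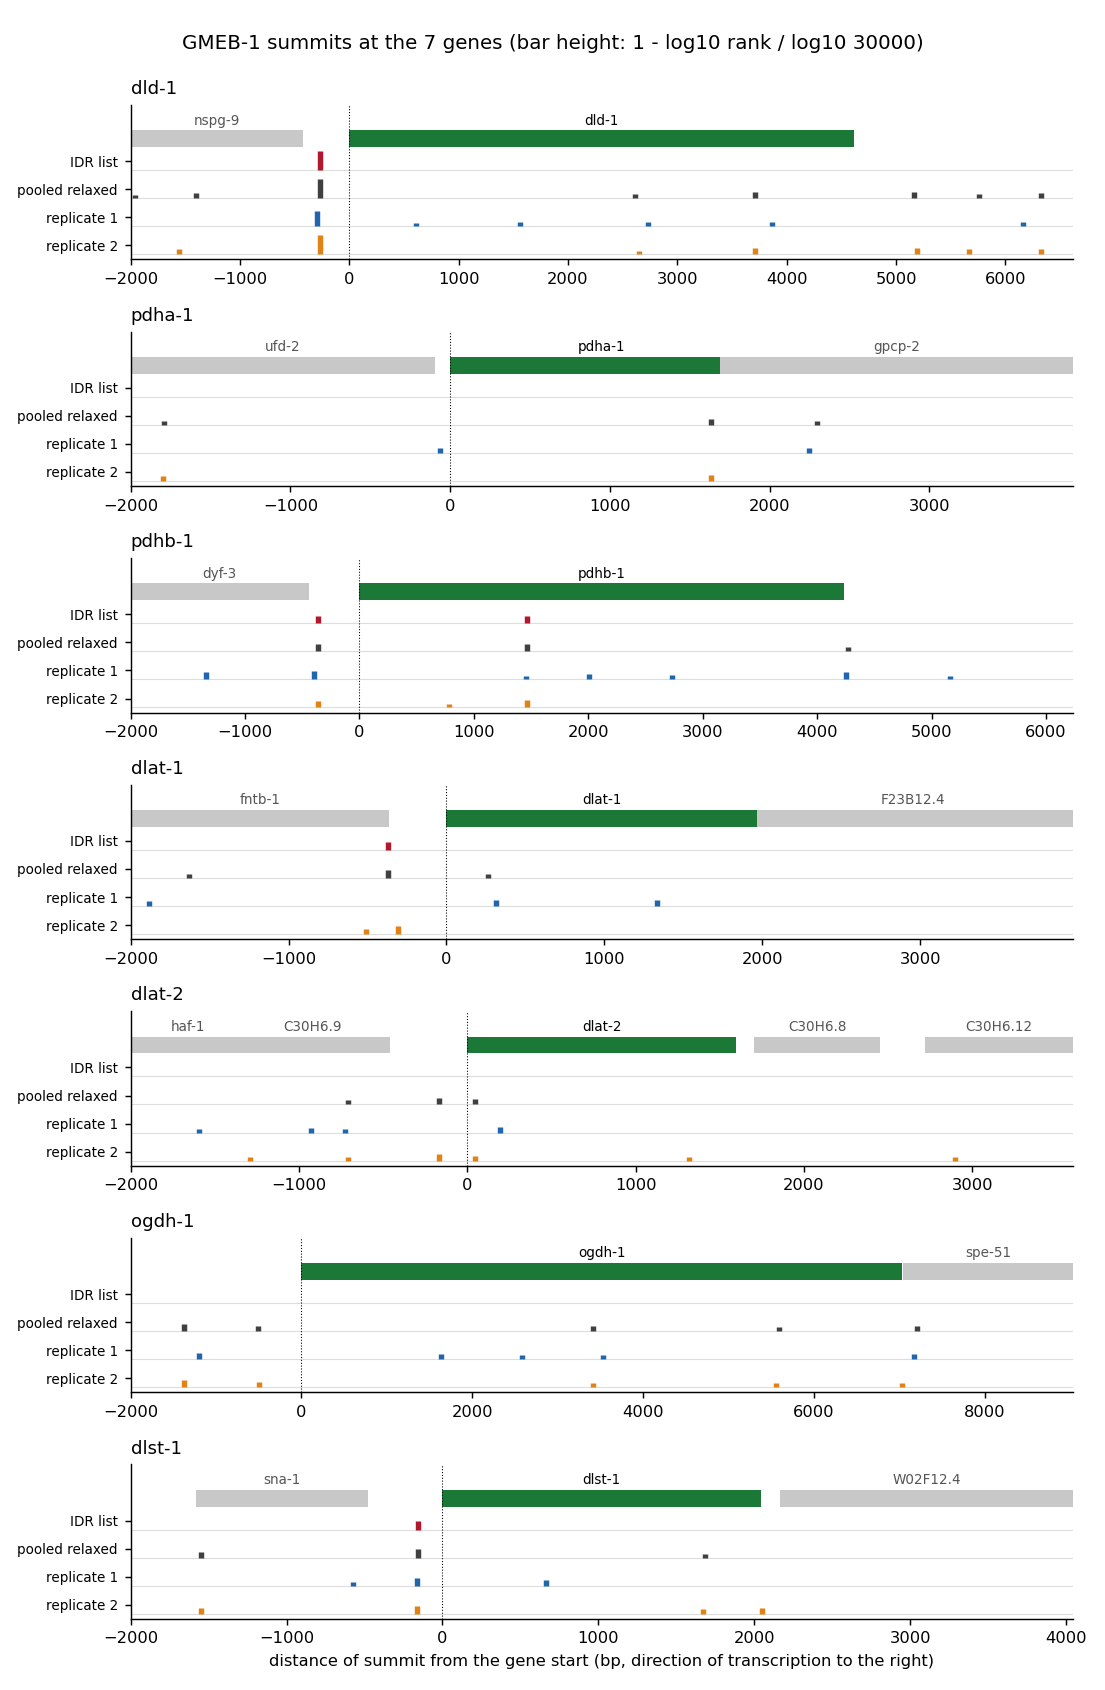
Positions of GMEB-1 summits from 2 kb upstream to 2 kb downstream of each of the 7 genes, in bp from the gene start with transcription to the right. Green bars are the genes and grey bars other protein-coding genes on either strand. Each other coloured bar is a summit of 1 list, and it is taller the closer its rank is to 1, the strongest. The bars at dld-1, 267 bp upstream in the IDR list, are the tallest, and pdha-1, dlat-2 and ogdh-1 have none in the IDR row.

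The sequences at the summits are shown because the members' regions differ in base composition and motif content as well as in signal. They are the 101 bp centred on each summit, from the RefSeq genome of build WBcel235 and read 5′ to 3′ on the strand of the named gene. Capitals mark matches to the 6 sequences searched on both strands, which were the palindromic core ACGT with its longer form TACGTA that contains it, the GC-rich ACGCGC and also GAGCGC, the sequence GACGCA and the repeat AGAGAG. The summit at dlat-1 lies in an annotated 5′ untranslated region of its neighbour, and its window is not printed.
dld-1, 267 bp upstream (chrIV:14464200-14464300, plus strand): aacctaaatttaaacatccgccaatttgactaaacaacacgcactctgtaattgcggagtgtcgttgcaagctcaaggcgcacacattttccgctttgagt
dlst-1, 158 bp upstream (chrV:6709209-6709309, minus strand): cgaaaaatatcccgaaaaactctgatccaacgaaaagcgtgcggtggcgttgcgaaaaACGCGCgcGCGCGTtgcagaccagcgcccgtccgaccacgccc
pdhb-1, 362 bp upstream (chrIV:3399260-3399360, plus strand): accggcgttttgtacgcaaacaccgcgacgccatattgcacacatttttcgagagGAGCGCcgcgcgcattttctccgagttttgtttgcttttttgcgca
pdhb-1, 1466 bp downstream, in an intron (chrIV:3401088-3401188, plus strand): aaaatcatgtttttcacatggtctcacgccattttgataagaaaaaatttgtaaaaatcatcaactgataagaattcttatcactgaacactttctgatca
ogdh-1, 1379 bp upstream, outside the IDR list (chrIV:4705340-4705440, minus strand): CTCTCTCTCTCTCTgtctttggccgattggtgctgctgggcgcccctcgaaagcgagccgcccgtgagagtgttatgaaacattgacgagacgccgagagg

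Of the 5 IDR windows at these genes, 2 held any of the 6 sequences, where 59.9% of all 3909 IDR windows of 101 bp did. With 25 bp to either side it was 2 of 5 against 40.2%, and with 100 bp 3 of 5 against 76.9%. The dlst-1 window held ACGCGC in both orientations, 8 to 13 bp and 16 to 21 bp past the summit. Together with the GC between them these form ACGCGCGCGCGCGT, 14 bases that read the same on either strand. A count made after this was seen found 2 or more matches of ACGCGC in 44 of the 3909 IDR windows, or 1.13%, and at least 1 in 12.3%. The pdhb-1 window upstream of the gene held GAGCGC, 5 to 10 bp past the summit, as 12.4% of IDR windows did. ACGT, the core that mammalian GMEB proteins bind, was in none of the 5 windows and in 26.1% of all IDR windows. In wider windows, 100 bp to either side, the dlst-1 window held ACGT within a TACGTA, where 43.4% of all IDR windows held the former and 1.56% the latter. In the 101 bp windows GACGCA was also absent from the 5 and present in 13.7% of all, as were AGAGAG, found in 18.6%, and TACGTA, found in 0.793%. The dld-1 window, at the strongest of these regions, held none of the 6.

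The windows also ranged widely in GC content. It was 60.4% at dlst-1, 51.5% at the upstream pdhb-1 summit, 43.6% at dld-1, 35.6% at dlat-1 and 28.7% at the intronic pdhb-1 summit. All IDR windows had a median of 43.6%, with quartiles of 38.6% and 49.5%. The windows of dlst-1 and the upstream pdhb-1 summit were thus above the upper quartile, and those of dlat-1 and the pdhb-1 intron below the lower. The 2 windows with a match were those richest in GC, and the part of GC content in the matches was not tested.

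The shared E3 gene dld-1 (WBGene00010794, chromosome IV, 14464517 to 14469136, plus strand) encodes dihydrolipoyl dehydrogenase, which returns the lipoyl group of E2 to its oxidised form. Its summit at 14464250 lay 267 bp upstream of the gene start, in a region of 404 bp. The signal was 1319, which was 21.7 times that of dlst-1, the next member, and 19.3 times the median of the IDR list. Of the 3265 genes with an IDR summit in the promoter, 9 had their strongest summit at this rank or above. In replicate 1 the region ranked 67 with a signal of 42.7, and its summit lay 299 bp upstream of the start. In replicate 2 it ranked 7 with a signal of 1277, and its summit was at the same base as in the pooled list. These ranks are within the top 0.234% of the list in replicate 1 and the top 0.0233% in replicate 2. In replicate 1 the signal was 4.19 times that of the next member, the upstream pdhb-1 region, and in replicate 2 it was 24.5 times that of dlst-1.

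No other region near dld-1 came close to the IDR list. The pooled list held 8 summits in the gene or within 2 kb, and the strongest after the promoter summit ranked 6216, in intergenic sequence 5168 bp past the start. Inside the gene the strongest was intronic, 3707 bp past the start, at rank 6519. The promoter summit fell in LLC1.120, an unclassified non-coding RNA gene on the opposite strand, while the summit of replicate 1 lay just outside it. The nearest protein-coding start was that of dld-1. The upstream neighbour nspg-9, on the same strand, ended 418 bp before dld-1, and the summit lay 290 bp past the start of 1 of its transcripts.

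**Figure D2:**
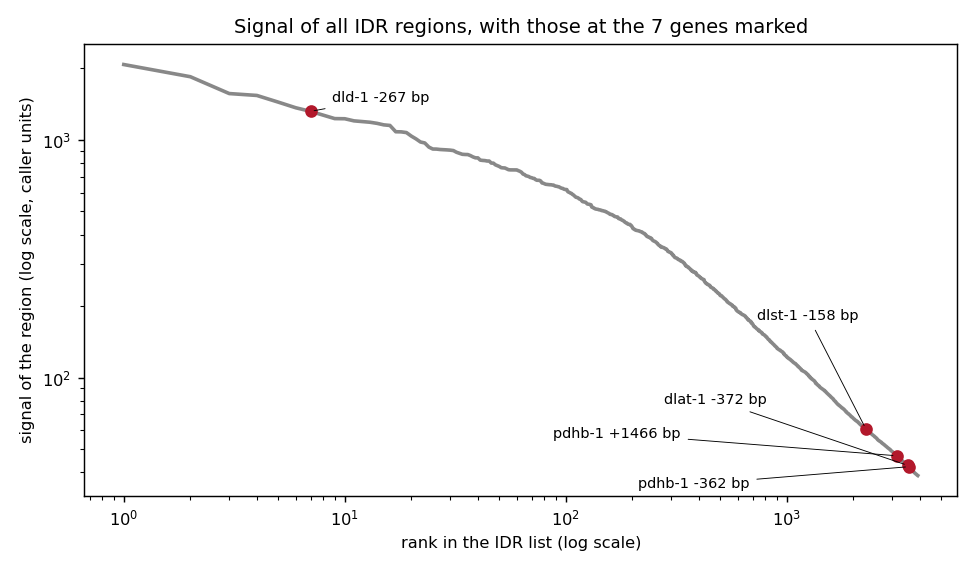
Signal of each of the 3909 IDR regions against its rank, both on log scales, with the 5 summits at these genes as red points. The dld-1 point is at rank 7 with a signal of 1319, and the other 4 lie between 60.9 and 42.2 near the lower end of the curve.

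Among the E2 genes, dlst-1 (WBGene00020950, chromosome V, 6707056 to 6709101, minus strand) had the strongest region after dld-1. It encodes the dihydrolipoyllysine succinyltransferase of the 2-oxoglutarate complex. Its summit at 6709259, 158 bp upstream of the start, had a signal of 60.9 and rank 2275 in the IDR list. The replicates placed this region alike, at rank 2507 in replicate 1 with a signal of 8.31 and at rank 2402 in replicate 2 with a signal of 52.2. Their summits were 7 bp and 3 bp from the pooled summit. As at dld-1, the summit lay in an unclassified non-coding RNA gene, here W02F12.11, which runs on the opposite strand. This was so for 2 of the 5 IDR summits at these genes and for 7.04% of all IDR summits, with piRNA genes and pseudogenes left out. The upstream coding neighbour sna-1 is on the same strand and ended 476 bp away, so dlst-1 had the nearest coding start.

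The E2 gene of the pyruvate complex, dlat-1 (WBGene00009082, chromosome V, 14445323 to 14447290, minus strand), encodes the dihydrolipoyllysine acetyltransferase. It shares its upstream sequence with fntb-1, the farnesyltransferase beta subunit gene, which runs the other way and starts 360 bp from dlat-1. The summit at 14447662 was 372 bp upstream of dlat-1 but only 11 bp past the start of fntb-1, in its 5′ untranslated region. It had a signal of 42.7 and rank 3520. In replicate 2 the overlapping region ranked 3134, with a signal of 42.3 and its summit 309 bp upstream of dlat-1, and in replicate 1 nothing overlapped it. The strongest region of replicate 1 in dlat-1 or within 2 kb was in a coding exon 312 bp past the start, at rank 7198. The dlat-1 promoter region therefore rests on replicate 2. Of all 3909 IDR regions, 83.8% overlapped a region of the relaxed list of replicate 1 and 99.5% one of replicate 2.

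The E1 beta gene pdhb-1 (WBGene00015413, chromosome IV, 3399672 to 3403908, plus strand) was the member with 2 IDR summits, as 5.69% of protein-coding genes had 2 or more in the gene or within 2 kb. Its promoter summit at 3399310 was 362 bp upstream, with a signal of 42.2 and rank 3568. This sequence too is shared: dyf-3, the homologue of clusterin-associated protein 1, starts on the opposite strand 79 bp from the summit. In replicate 1 the region ranked 1701 with a signal of 10.2, and in replicate 2 it ranked 4485 with a signal of 31.2. It was thus stronger by rank in replicate 1, unlike every other IDR summit at these genes. The other summit, at 3401138 in an intron 1466 bp past the start, had a signal of 46.9 and rank 3133. Here the order was the reverse, with rank 22340 in replicate 1 and rank 3084 in replicate 2. The intronic summits of the replicates were 7 bp apart, but the −log10 q was 0.612 in replicate 1 and at its ceiling of 4.17 in replicate 2.

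**Figure D3:**
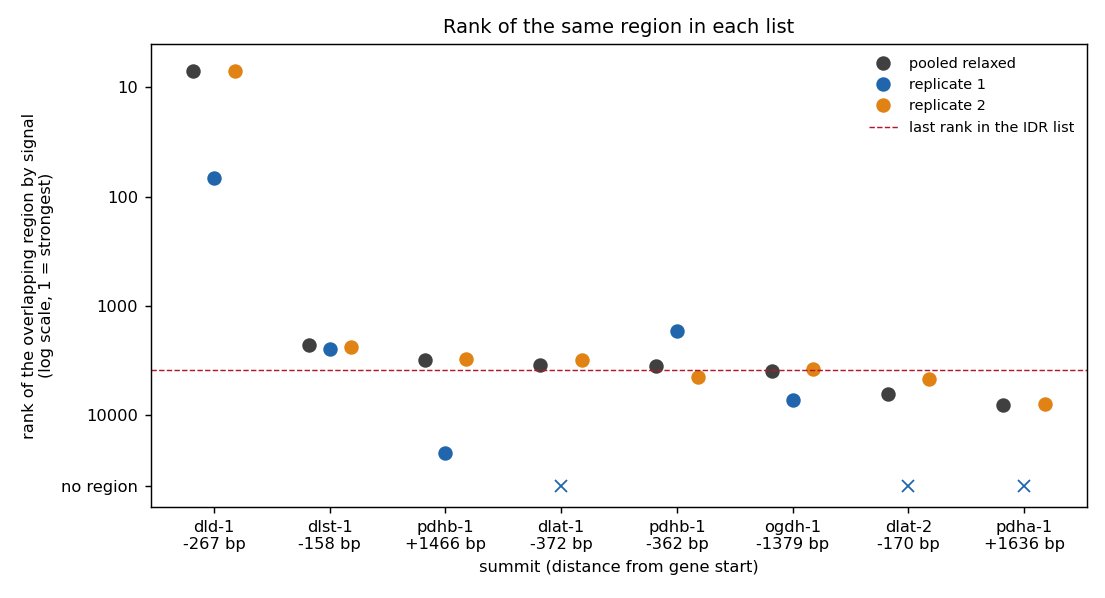
Rank by signal, on a log scale with the strongest at the top, of the region that overlapped each summit in the pooled list and in each replicate's list, and crosses where no region overlapped. The dashed line is rank 3909, the end of the IDR list. The points of dld-1 and dlst-1 lie above it in all 3 lists, while those of the 2 pdhb-1 summits part between the replicates.

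The 2 promoter summits of pdhb-1 and dlat-1 lay in promoters of genes on both strands, as did 30.4% of the 2545 IDR summits that fell in a promoter. When each summit counted only for the nearest coding start, dld-1 and dlst-1 were left, since fntb-1 and dyf-3 were nearer to the others, and 12.1% of all protein-coding genes had a promoter summit under that rule. The replicates differed in which members they held. Of the 3909 strongest regions of replicate 1, summits lay in the promoters of dld-1, pdhb-1 and dlst-1, where 11.8% of all protein-coding genes had one. In replicate 2 they lay in those of dld-1, dlat-1 and dlst-1, against 16.5% of all genes. Only dld-1 and dlst-1 were in both.

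The 3 remaining genes had weaker regions. At ogdh-1 (WBGene00020679, chromosome IV, 4696979 to 4704011, minus strand), the E1 gene of the 2-oxoglutarate complex, the strongest pooled region was just outside the IDR list. Its summit at 4705390, 1379 bp upstream, had rank 3951 and a signal of 38.3, where the last IDR region had 38.7. The weakest member region inside the list, the promoter region of pdhb-1, had 42.2. In replicate 2 the ogdh-1 region ranked 3753 with a signal of 36.6, and in replicate 1 the overlapping region ranked 7308 with a signal of 4.99 and its summit 1203 bp upstream. Within the promoter of ogdh-1 the strongest pooled summit was 505 bp upstream, at rank 10543. The nearest IDR summit was 16749 bp away.

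The gene dlat-2 (WBGene00007824, chromosome IV, 17380626 to 17382225, plus strand) had a pooled summit 170 bp upstream with a signal of 24.5 and rank 6386. Replicate 2 had a summit at the same base, at rank 4660, and no region of replicate 1 overlapped it. Its promoter is shared with C30H6.9, which runs the other way and starts 286 bp from the summit. The nearest IDR summit lay 24080 bp from the gene.

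The E1 alpha gene pdha-1 (WBGene00011510, chromosome II, 8066285 to 8068184, plus strand) encodes the subunit that is switched off by phosphorylation in mammals. It follows ufd-2, a ubiquitin conjugation factor gene on the same strand, by 91 bp. No summit of the pooled list lay in its promoter. The strongest pooled summit was in the 3′ untranslated region, 1636 bp past the start, at rank 8153 with a signal of 19.4, and replicate 1 had no region there. Replicate 1 had a summit 66 bp upstream of pdha-1, at rank 13235, and neither replicate 2 nor the pooled list had one in the promoter. The nearest IDR summit was 7296 bp from the gene. Relaxed regions are common: all 7 genes had a pooled summit in the gene or within 2 kb, as did 63.4% of protein-coding genes, and 6 of the 7 had one in the promoter against 42.7%.

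The genes around these complexes were examined through 5 lists, of which 60 of 62 names matched the annotation. These lists were written with results of these data known, so the counts are a description. An IDR summit lay in the promoter of 30 of the 60, beside 16.3% of all protein-coding genes. The same share of 16.3% is the background for the count of each list below. The median rank of the strongest promoter summit was 1784.5 for these 30 genes, 2897.5 for the 4 members and 1415 for all 3265 genes with one.

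Among the genes that switch or supply the complexes, pdhk-2 had the strongest region. This gene encodes a kinase that phosphorylates and inhibits pyruvate dehydrogenase, and it had a summit 233 bp upstream at rank 24 with a signal of 933. That region ranked 782 in replicate 1 and 24 in replicate 2. The phosphatase gene pdp-1 had a summit 147 bp upstream at rank 1954, which lay 35 bp from the start of ZK973.8. The strongest pdp-1 promoter summit ranked 13390 in replicate 1 and 1808 in replicate 2. The pyruvate carrier genes mpc-1 and mpc-2 had no IDR summit in the promoter, so 2 of 4 did. Of 5 lipoate genes 2 did, lipt-1 at rank 824 and lias-1, the lipoyl synthase gene, at rank 857. The others, lpl-1, gcsh-1 and gcsh-2, had none. Both gcsh-1 and gcsh-2 are annotated as glycine cleavage system H protein, but were counted here and not with the other complexes that use DLD-1. The lias-1 region was at ranks 1241 and 894 in replicates 1 and 2, and replicate 1 had no summit in the lipt-1 promoter.

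Of 6 genes of the other complexes that use DLD-1, 3 had an IDR summit in the promoter. The gene dbt-1, the E2 of the branched-chain complex, had a summit 149 bp upstream at rank 32 with a signal of 888, and ranks of 355 and 31 in replicates 1 and 2. The E1 alpha gene of that complex, bckd-1A, had one 181 bp upstream at rank 2651. The strongest bckd-1A promoter summit ranked 9909 in replicate 1 and 2289 in replicate 2. In replicate 1 it lay 192 bp past the start, so that rank is not one of the IDR region. The E1 beta gene of the complex, bckd-1B, had none in the IDR list, and its strongest pooled promoter summit ranked 9463. The other genes of the list without an IDR summit in the promoter were gcst-1 and ogdh-2. Their strongest pooled promoter summits ranked 4333 and 6853. The glycine decarboxylase gene gldc-1 had an IDR summit in the promoter at rank 3796.

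In the list for the rest of the TCA cycle, 15 of 21 genes had an IDR summit in the promoter, or 71.4%. The list also holds genes annotated as cytoplasmic aconitate hydratase, cytoplasmic malate dehydrogenase and NADP isocitrate dehydrogenase. Of these, only the cytoplasmic malate dehydrogenase gene had no IDR summit in the promoter. The strongest was at mdh-2, mitochondrial malate dehydrogenase, 222 bp upstream at rank 207 with a signal of 418. It was followed by aco-2, mitochondrial aconitase, at rank 270, and by mev-1, a membrane subunit of succinate dehydrogenase, at rank 404. These 3 were also high in replicate 1, at ranks 1018, 70 and 288. The flavoprotein gene sdha-1 was at rank 735, and the isocitrate dehydrogenase genes idhb-1 and idhg-1 at ranks 1080 and 1248. In replicate 1 these 3 were at ranks 460, 2815 and 11106, and in replicate 2 at ranks 778, 1030 and 1193. Some promoters are shared: the summit of aco-2 lay 7 bp from the start of the elongation factor gene eef-1B.1, and that of mev-1 lay 113 bp from jmjd-4. With the nearest start only, 11 of the 21 were left, where 12.1% of all protein-coding genes had a promoter summit under that rule.

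Glycolysis and pyruvate use had 8 of 24 genes with an IDR summit in the promoter, or 33.3%. Beside the genes of glycolysis the list holds ldh-1, pyc-1, pck-1, pck-2, men-1 and icl-1, the last annotated as malate synthase. Of these, all but ldh-1 and pck-1 had an IDR summit in the promoter. Among the genes of glycolysis only hxk-2, hxk-3, gpd-3 and aldo-2 had one. The strongest of the list was at the hexokinase gene hxk-2, at rank 969, 267 bp upstream and 150 bp from the start of cdk-9. Next were pyc-1, pyruvate carboxylase, at rank 1732, hxk-3 at rank 2126, gpd-3 at rank 2414, men-1 at rank 3055 and aldo-2 at rank 3065. The strongest promoter summits of these genes ranked from 754 at pyc-1 to 10121 at aldo-2 in replicate 1. In replicate 2 they ranked from 995 at hxk-2 to 3917 at men-1. At aldo-2 the IDR summit lay 54 bp past the start, while the strongest promoter summit of each replicate lay upstream of the start. No gene of this list had a summit ranked as high as dld-1, pdhk-2 or dbt-1. Whether any of these lists differs from other genes of like expression or promoter length was not tested.

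**Figure D4:**
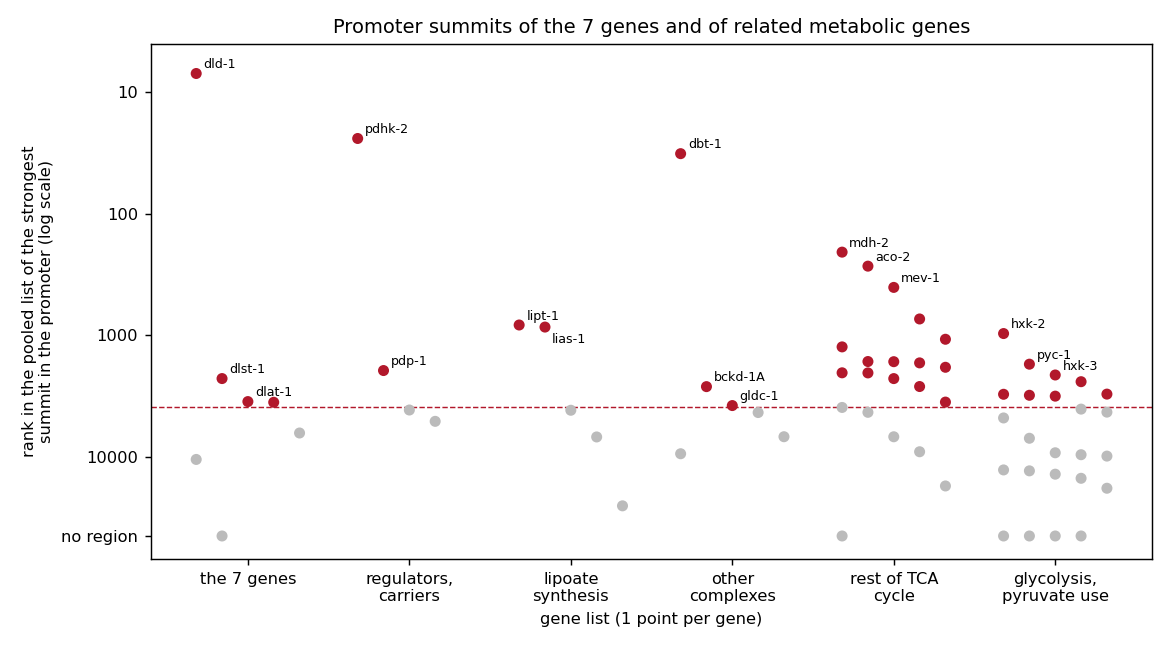
Rank in the pooled list, on a log scale with the strongest at the top, of the strongest summit in the promoter of each gene, for the 7 genes and the 5 related lists. Red points are in the IDR list, grey points are not, and the dashed line is rank 3909. The points of dld-1, pdhk-2 and dbt-1 stand at ranks 7, 24 and 32, above all other genes shown.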

How the data were processed

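The authors deposited lists of regions in the narrowPeak layout for builds ce11 and ce10. According to the deposited readme, relaxed lists were called on each replicate's alignments, or on both, with a control shared by the replicates, and the IDR list was derived from them. Sources used here do not give the caller or IDR threshold. The deposited signal and −log10 q of each region are the authors' values. In every IDR region −log10 q was at its ceiling of 4.09, so regions were ranked by signal within a list. The commonest width, 336 bp, was that of 66.2% of IDR regions.

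Only ce11 lists were used, with WBcel235 and Ensembl release 115. Summits are 1-based. For each member summit, the overlapping region (1 bp or more) with the nearest summit was taken from each other list. For genes of the related lists, a replicate rank is that of the strongest summit anywhere in the promoter in that replicate. The members, lists, motifs and rules were chosen with earlier results of these data known. Named genes are the members, their neighbours and at most 6 genes with the strongest promoter summits per list. Some further genes of the lists are named outside this rule, with or without an IDR summit in the promoter. No test was made, and 1 group allows none between groups. The scripts were tested on simulated data, where summits were planted in 199 promoters and all 199 genes were found. Python 3.11.15, numpy 2.4.6 and pandas 2.3.3 were used.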

Additional observations from a re-analysis of the deposited data

How the results depend on the processing

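With the 1954 strongest IDR regions, dld-1 was the 1 member with a summit within 2 kb and the 1 member with a summit in the promoter, and 17 of the 60 related genes had one. Of all protein-coding genes, 17.3% and 10.2% did, so 1 of 7 members is near these shares. With the nearest start only, 2 members had a promoter summit, against 12.1% of all genes. Leaving out a replicate gave 3 to 5 members within 2 kb, ogdh-1 among the 5 without replicate 1, 3 in the promoter in either case, and 27 to 29 related genes. The shares of all genes within 2 kb were 23.7% without replicate 2 and 28.3% without replicate 1, and in the promoter 11.8% and 16.5%. Without replicate 2, the regulator and the lipoate lists each fell from 2 genes to 1. The regulator list rose to 3 without replicate 1 and fell to 1 with the nearest start only. Glycolysis and pyruvate use went from 8 genes to 13 with promoters of 2000 and 500 bp. With the 1954 strongest regions it fell to 2. The rest of the TCA cycle went from 15 genes to 17 and 10 under the same rules. The other complexes that use DLD-1 fell from 3 genes to 1 with the 1954 strongest regions. A flank of 1 or 5 kb, region overlap and promoters of 500 and 100 bp or 2000 and 500 bp kept the same 4 members, while the share of all genes was 22.1%, 41.8%, 28.9%, 13.3% and 20.8%. The distances were the same from the gene start. For pdhb-1, dlat-1 and dlst-1 this could not be otherwise, since each has 1 annotated transcript start. Nor could it at dld-1, whose summit lies upstream of the whole gene, so that the gene start is the nearest. Windows of 25 and 100 bp to either side gave 2 and 3 of 5 member windows with a motif, against 40.2% and 76.9% of all IDR windows. Of 55 alternatives, 45 stayed the same or within 1.5 times the main value. None reversed, but counts of genes or windows cannot reverse and the distances were fixed. The 45 include these distances. No paired analysis was possible because there is 1 group. The number of reads is unknown, so regions that miss the list are not shown to be unbound. With 2 replicates, ranks that differ between them cannot be weighed against replicate spread.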

Other observations

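The dld-1 locus lies among piRNA genes, short germline RNA genes that are dense on parts of this chromosome. There were 13 piRNA genes in dld-1 or within 2 kb of it and 0 at each of the other 6 genes. How often other genes of this chromosome have piRNA genes so near was not counted, so these counts have no background beside them. At dlat-2, which is outside the IDR list, the 101 bp window around the pooled summit had a GC content of 33.7% and held GAGCGC 44 to 49 bp past the summit. At ogdh-1 the window had 59.4% GC and opened with a CT repeat that gave 5 overlapping matches to AGAGAG.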
